A study of Mus musculus with 6 samples.

Results

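The neurotrophins, the receptors that bind them and a partner secreted peptide were followed in the brains of mice given oil palm phenolics (OPP), a water-soluble extract of the oil palm fruit. The genes were *Bdnf*, *Ntf3*, *Ntrk2*, *Ntrk3*, *Ngfr*, *Sort1* and *Vgf*, and every probe that the array annotation pairs with 1 of these 7 symbols was taken, whatever its values. The array held 11 such probes of 24048, for 5 of the 7 genes, among 14776 named genes with a probe. No probe was matched to *Ntf3* or *Vgf* by symbol, gene identifier or accession, and both are not analysed here. Of the 11 probes, 7 passed the filter on dim probes described below, 4 of *Ntrk3* and 3 of *Sort1*.

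The brains came from male mice of BALB/c, an albino strain kept inbred, and the animals were 12 weeks old. The 3 controls drank distilled water and the other 3 mice drank OPP at 1500 ppm gallic acid equivalent, a measure of total phenolics, for 6 weeks, with the same normal diet in both groups. The comparison asks which transcripts differed in the brain after OPP. Each brain was measured on its own Illumina MouseRef-8 array, where the light from the beads of a probe (its intensity) rises with the amount of transcript. The study's methods state that further arrays were removed as outliers, so that the spread within a group is that of the arrays kept. The methods give a cage as many mice as a group and do not say which mice lived together. If each group filled 1 cage, cage and treatment cannot be told apart. In brain RNA, fewer cells of a type and less RNA per cell cannot be told apart.

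Neurotrophins are secreted growth factors that neurons need for survival, for the growth of axons and dendrites and for the strength of synapses. They are made as longer proforms that are cut by proteases. The mature forms bind Trk receptor tyrosine kinases, TrkB (gene *Ntrk2*) for brain-derived neurotrophic factor (*Bdnf*) and TrkC (*Ntrk3*) for neurotrophin 3 (*Ntf3*). The proforms bind p75 (*Ngfr*) together with sortilin (*Sort1*), which also sorts proBDNF inside the cell. VGF (*Vgf*) is a granin-like peptide precursor of dense-core vesicles that BDNF induces.

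Transcription of *Bdnf* starts at several promoters, some of which respond to neuronal activity through the factor CREB. CREB binds the element TGACGTCA and also its half-site, CGTCA or TGACG on the other strand. In the 250 bases before the start, the half-site was found in 1 of the 7 *Bdnf* windows that RefSeq annotation of the mouse assembly GRCm38.p6 gives, and in 0 of the windows of *Ntf3*, *Ngfr* and *Ntrk2*. It is held by 17.8% of all 32851 windows. The full element was in 0 of the *Bdnf* windows and in 1.55% of all windows. Another form, the full element or either of TCACGTCA and TGACGTGA, was in 1 *Bdnf* window and in 1.88% of all. The half-site was chosen among these 3 forms after the matches had been seen. A match is a description of letters and not a binding site. The *Bdnf* window is printed beside that of *Fos*, the activity-induced gene with the smallest p described below. In both, the 150 bases before the start are given 5′ to 3′ on the plus strand, with the half-sites in capitals. The *Bdnf* stretch is chr2:109692286-109692435 and the *Fos* stretch is chr12:85473740-85473889.
Bdnf: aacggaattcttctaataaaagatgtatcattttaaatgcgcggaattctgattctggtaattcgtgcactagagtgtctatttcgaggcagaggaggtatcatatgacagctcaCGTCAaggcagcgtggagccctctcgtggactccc
Fos: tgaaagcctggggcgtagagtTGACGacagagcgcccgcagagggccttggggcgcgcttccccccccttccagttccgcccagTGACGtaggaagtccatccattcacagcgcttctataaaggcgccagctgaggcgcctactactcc

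The 6 arrays were alike in quality, with 7442 to 7903 probes above background and correlations of 0.954 to 0.987 between arrays on the log2 scale. A probe was taken as above background in a brain at a detection level over 0.99, and 62.4% of all probes were above it in no brain. Probes were tested where the mean detection level was over 0.99 in at least 1 group, which left 7611. Control replicate 2 stood apart in cell type markers. Granulocyte markers (6 of 9 listed genes tested) had a mean log2 level of 11.84 there. Control replicates 1 and 3 had 8.83 and 9.14, and the OPP brains 7.98 to 8.18. All 6 were lower with OPP, 5 of them at an unadjusted p under 0.05 from limma, against 2.38% of all tested probes. In 5 each OPP brain lay below each control, against 5.41%. *Ltf*, *S100a9*, *Camp* and *Retnlg* were above background in 3 controls and in at most 1 OPP brain. These genes passed the filter through the controls, where they were higher. Neither their direction nor their part in these counts is thus support for a difference. Cerebellum markers (4 of 16 tested, the Purkinje cell gene *Pcp2* not among them) were at 9.91 in control replicate 2. They were at 11.70 and 11.32 in control replicates 1 and 3, and at 10.30 to 10.76 with OPP. General neuron markers (11 of 14 tested) lay within 11.02 to 11.25 in all 6 brains. In limma with Benjamini-Hochberg adjustment, 0 probes were higher and 1 was lower with OPP at an adjusted p under 0.05. The unadjusted p was under 0.05 for 128 probes (1.68%) that were higher and for 181 (2.38%) that were lower. The split rests on the scaling between arrays, with 240 higher and 103 lower when scaled on detected probes and 147 and 71 with no scaling.

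Of the ligands, *Bdnf* had probes, and in each of the 6 brains both of them stayed below the background limit. The first *Bdnf* probe had scaled intensities of 169, 168 and 185 in the controls and 163, 188 and 166 with OPP, so that the groups overlapped. The second read 180, 170 and 175 in the controls and 161, 163 and 144 with OPP. Each mouse given OPP lay below each control on this probe, but the dimmest probe above background on any array was at 262, well over all of these values. The authors' own background-subtracted means were -4.60 in the controls and -24.9 with OPP for the second probe. No fold change is given for either, since both groups gave only an upper limit. Of the other ligands, *Ntf5*, which encodes neurotrophin 4, was above background in 0 of 6 brains.

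*Ngfr*, which encodes p75, the low-affinity receptor of all neurotrophins, was not above background in any brain either. Its intensities were 175, 147 and 160 in the controls and 146, 137 and 157 with OPP, with overlap. *Ntrk2*, which encodes TrkB and whose product is made widely by neurons and astrocytes of the brain, was represented by 1 probe that read 237, 192 and 221 in the controls and 208, 250 and 289 with OPP. It was above background in OPP replicate 3 alone, and the groups overlapped. Being above background in 1 OPP brain and no other was seen for 2.08% of all probes, and in 1 control and no other for 1.37%. In OPP replicate 3 itself this held for 267 probes (1.11% of all). *Ntrk2* was not tested, and no fold is given because the bound that the background allows was under 1. How the low reading of this probe relates to the amount of *Ntrk2* transcript was not tested, as no probe sequence was used here.

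**Figure D1:**
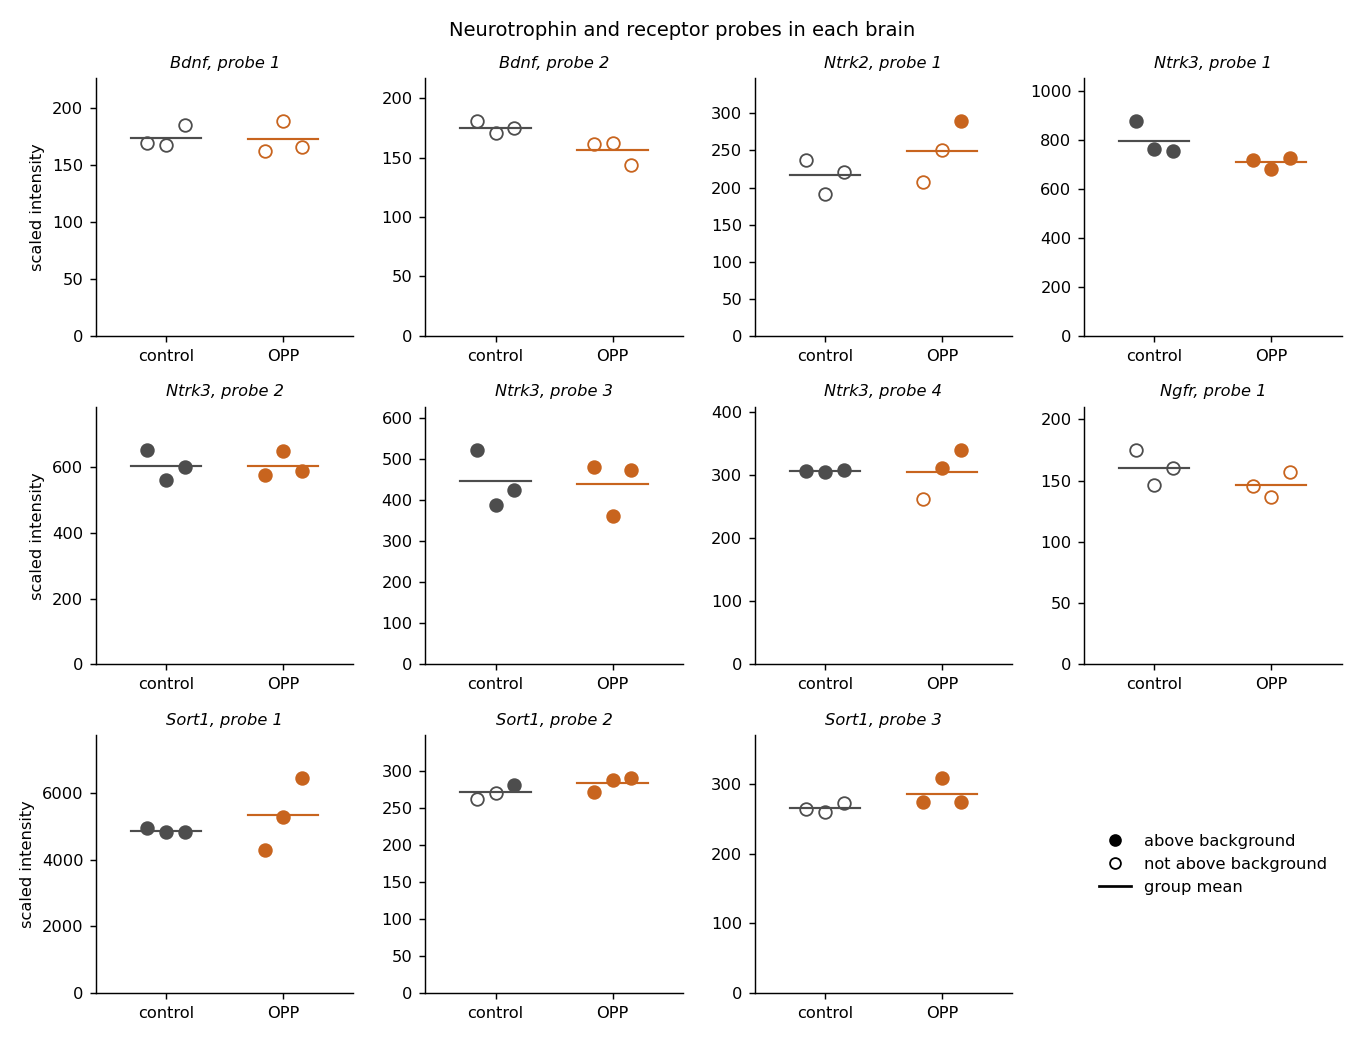
Scaled intensity (linear axis from 0) of each of the 11 probes in each brain, controls in grey and OPP in orange, with filled points above background and bars at the group means. The *Bdnf* and *Ngfr* points are all open, the *Ntrk2* point of OPP replicate 3 is the 1 filled of its panel, and the controls of *Sort1* probe 1 lie close together while the OPP brains spread.

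*Ntrk3*, which encodes TrkC, the receptor of neurotrophin 3, had 4 probes, numbered here from the brightest. Probes 1 and 3 are paired with 1 RefSeq transcript and probes 2 and 4 with another. Intensities of different probes are not comparable as amounts, so each is compared only between brains. Probe 1 read 877, 764 and 754 in the controls and 718, 683 and 725 with OPP. All 3 OPP brains were below all 3 controls, with control replicate 1 the highest. The log2 difference, OPP minus control, was -0.17 (standard error 0.10, 95% interval -0.40 to 0.06, adjusted p = 0.985 from limma), which is a fold of 0.890. Without control replicate 1 it was -0.10. Non-overlap gives p = 0.1 in the exact two-sided permutation test, the smallest that 3 brains against 3 allow.

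The other *Ntrk3* probes overlapped between the groups. Probe 2 read 651, 559 and 599 in the controls and 575, 648 and 586 with OPP, a log2 difference of 0.00 (95% interval -0.24 to 0.24). Probe 3 read 522, 388 and 425 in the controls and 479, 362 and 472 with OPP, a difference of -0.02 (95% interval -0.36 to 0.32). Control replicate 2 and OPP replicate 2 were the low brains of this probe, 1 in each group. Probe 4 read 306, 304 and 307 in the controls and 262, 311 and 340 with OPP, a difference of -0.02 (95% interval -0.28 to 0.25). It was above background in all controls and in 2 of the 3 OPP brains, and OPP replicate 1 was the dim one. The adjusted p from limma was at least 0.985 for each *Ntrk3* probe.

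The probes of *Ntrk3* were set against each other by the difference of their differences, in 6 pairs, and with the 3 pairs of *Sort1* this made 9 comparisons. Probe 1 differed from probe 2 by -0.17 on the log2 scale, with standard deviations of 0.06 among controls and 0.14 among OPP brains for the difference of the 2 probes (exact permutation p = 0.1, adjusted p = 0.9 over the 9 pairs). Between the probes of 1 transcript, probe 1 differed from probe 3 by -0.14 (exact permutation p = 0.3, adjusted p = 0.9). None of the 9 pairs reached an adjusted p under 0.05, which 3 brains a group cannot reach in this test. The lower reading with OPP was thus measured on 1 of 4 probes of the gene, and the others gave intervals that include both 0 and the value of probe 1.

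*Sort1*, which encodes sortilin, a sorting receptor of the Golgi and endosomes that also acts as co-receptor for proneurotrophins, had 3 probes, likewise numbered from the brightest. Probe 1 read 4969, 4820 and 4835 in the controls and 4282, 5272 and 6447 with OPP. The controls lay within a narrow band, and the OPP brains lay on both sides of it, OPP replicate 1 below and OPP replicates 2 and 3 above. The control mean was 4875 ± 81.7 (SD, n = 3) and the OPP mean 5333 ± 1084 (SD, n = 3). The log2 difference was 0.11 (standard error 0.14, 95% interval -0.22 to 0.44, adjusted p = 0.989 from limma; exact permutation p = 0.7). Without OPP replicate 3 it was -0.04, and without OPP replicate 1 it was 0.26.

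The spread of *Sort1* probe 1 differed more between the groups than its mean did. On the log2 scale the standard deviation was 0.02 in the controls and 0.30 with OPP, a ratio of 12.3. A ratio as large or larger was found in 0.604% of the tested probes, whose median ratio was 0.948. *Ntrk3* probe 4 had a ratio of 23.1, reached by 0.145% of the tested probes, from a control standard deviation of 0.01. Both ratios rest on 3 values a group and were picked out after the values had been seen, so they carry no test. For the other 5 tested probes the ratio was 0.387 to 2.69.

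The dimmer *Sort1* probes read near the background limit. In both, the mean detection level was over 0.99 with OPP and under it in the controls, so that they passed the filter only through the group where they were higher, and neither their sign nor its steadiness is support for a difference. Probe 2 read 263, 271 and 282 in the controls and 272, 288 and 291 with OPP, with overlap, and was above background in 1 control and in 3 OPP brains (log2 difference 0.06, 95% interval -0.15 to 0.27). Probe 3 read 265, 260 and 273 in the controls and 274, 308 and 274 with OPP, and was above background in 0 controls and 3 OPP brains. Each OPP brain lay above each control on probe 3, though control replicate 3 and OPP replicate 1 were nearly equal. The log2 difference was 0.10 (standard error 0.10, 95% interval -0.12 to 0.32, adjusted p = 0.985 from limma), and the measured fold was 1.07. Probe 3 counts as not above background in the controls. With the control values raised to the background limit of their arrays the fold was 1.04, a point value with no interval of its own. The 95% interval of the measured fold, 0.919 to 1.25, includes 1, so no increase is established. Being above background in 3 OPP brains and no control was seen for 33 tested probes (0.434%), and the reverse for 7 (0.092%).

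**Figure D2:**
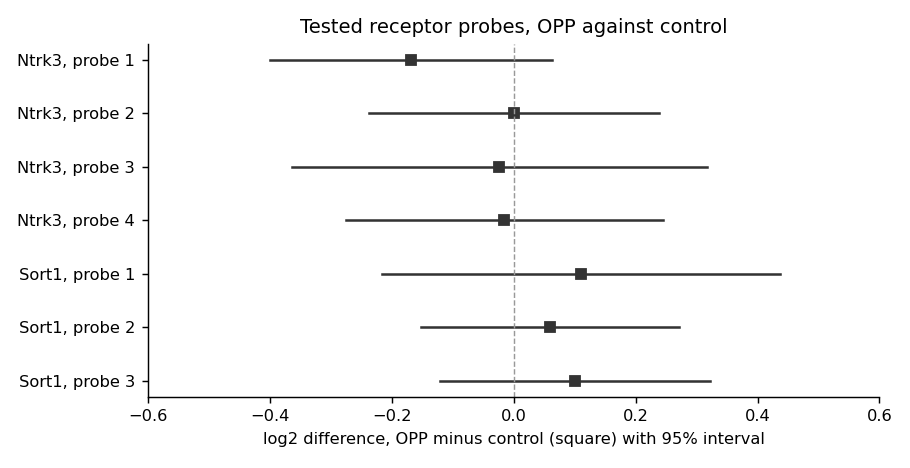
Log2 difference (OPP minus control, squares) with its 95% interval from limma (lines) for the 7 tested probes, 3 brains a group. Every interval includes 0, with *Ntrk3* probe 1 at -0.17 and *Sort1* probe 1 at 0.11.

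Among the 7 tested probes the groups did not overlap in 2, *Ntrk3* probe 1 below and *Sort1* probe 3 above. *Sort1* probe 3 passed the filter only through the OPP brains, as said above. Over all tested probes the groups did not overlap in 9.59%, with OPP below in 5.41% and above in 4.18%. With a list of 7, the count of 2 is read only as a description. None of the 7 passed at an adjusted p under 0.05, which 0.0131% of all probes did, and 0 of the 7 passed at an unadjusted p under 0.05, which 4.06% of all probes did. Without scaling between arrays the groups overlapped in both probes, and with normexp background correction in *Sort1* probe 3. With scaling on detected probes, or without control replicate 3, *Sort1* probe 2 was added above, which made 3. Without OPP replicate 1 the groups did not overlap in 5 of the 7, *Ntrk3* probe 4 and *Sort1* probes 1, 2 and 3 above and *Ntrk3* probe 1 below. The share over all tested probes is not given for these settings, and fewer brains in a group make non-overlap more frequent. *Sort1* probe 2 also passed the filter only through the OPP brains, so these counts too are read only as a description. Cerebellum markers, given above, varied among the brains, and their part in the *Ntrk3* and *Sort1* values was not tested.

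The 3 genes most like each member over the 6 brains were sought for member probes that were above background in all 6 and spanned over 0.5 on the log2 scale. These were *Ntrk3* probe 3 and *Sort1* probe 1, which spanned 1.44-fold and 1.51-fold. Likeness was the root mean square difference of log2 values, each gene centred on its own mean, over 5808 named genes. For *Ntrk3* probe 3 the nearest were *Asic1*, which encodes an acid-sensing ion channel of neurons, at 0.03, *Acbd4*, which encodes an acyl-CoA binding protein, at 0.06, and *Ndrg2*, a gene of astrocytes, at 0.06. All of these were low in control replicate 2 and in OPP replicate 2. For *Sort1* probe 1 they were *Hspd1*, which encodes the mitochondrial chaperonin HSP60, at 0.04, *Bop1*, which encodes a ribosome assembly factor, at 0.04, and *Ap3s1*, which encodes a subunit of the AP-3 sorting adaptor, at 0.04. These were lowest in OPP replicate 1 and highest in OPP replicate 3. The median over all named genes was 0.22 in both cases. The brains share arrays and scaling across genes, and the likeness is given with no test.

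**Figure D3:**
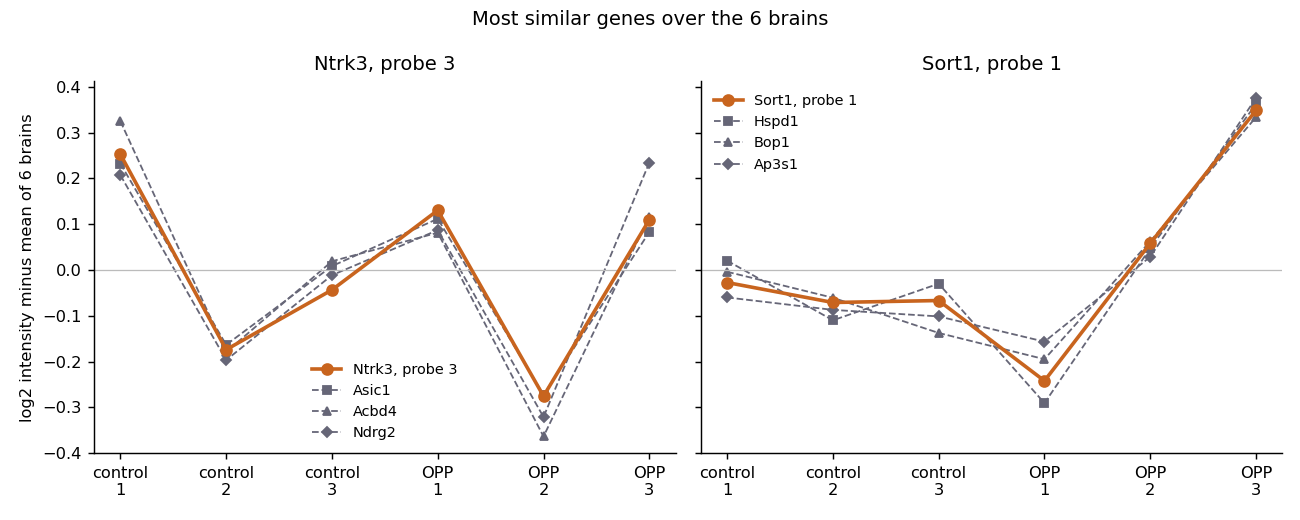
Log2 intensity minus the mean of the 6 brains for *Ntrk3* probe 3 and *Sort1* probe 1 (orange) and the 3 genes nearest to each (grey), with lines that only join points of 1 gene since replicates have no order. *Sort1* and its neighbours were lowest in OPP replicate 1 and highest in OPP replicate 3.

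The other genes of the pathway were described by lists, as the number tested, the number above 0 and the median log2 difference, beside 48.5% above 0 and a median of -0.00 over all tested probes. One probe was used per gene. Of 17 other ligands, receptors and co-receptors, 9 had a probe and 5 were tested, 2 above 0 (median -0.04). *Sorcs3*, which encodes a sortilin-family receptor of neurons, read 720, 814 and 676 in the controls and 843, 897 and 867 with OPP. Each OPP brain was above each control, and it was the gene of the list at an unadjusted p under 0.05 (log2 difference 0.24, standard error 0.11, unadjusted p = 0.0467, adjusted p = 0.985 from limma). Of the 6 fits that left out 1 brain it passed unadjusted in that without control replicate 2 (0.32), and the others gave 0.18 to 0.26. *Sorcs3* also did not pass with the authors' values (unadjusted p = 0.0860 from limma), normexp (0.0567) or the replicate block (0.0668). *Sorl1*, which encodes another receptor of that family, averaged 3174 in the controls and 3097 with OPP. *Rtn4r*, which encodes the Nogo receptor that signals through p75, had a log2 difference of 0.10 (0.16 without OPP replicate 3). It was above background in 0 controls and 2 OPP brains. *Rtn4r* thus passed the filter only through the group where it was higher, and its place above 0 is no support for a difference.

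The genes that cut, sort and release neurotrophins numbered 13 tested, 8 above 0 (median 0.03), with 0 past an unadjusted p under 0.05 in either direction. Among the 8, *Mmp3* was above background in 0 controls and 3 OPP brains. *Mmp3* thus passed the filter only through the group where it was higher, and its place above 0 is no support for a difference. The differences of largest size were 0.16 for *Sgsm1*, which encodes a modulator of small GTPases, and -0.16 for *Pcsk7*, which encodes a proprotein convertase. *Pcsk7* was -0.06 without OPP replicate 2. *Sgsm1* is here because the list was drawn up with it, and a role of it in neurotrophin release was not tested. *Furin*, which encodes the convertase best known for cutting proneurotrophins, was at -0.08. Of 33 tested genes of Trk receptor signaling, 16 lay above 0 (median -0.01), and 0 passed unadjusted. There *Dusp6*, which encodes a phosphatase of ERK, was at 0.45 (standard error 0.21), and *Camk2a*, a calcium kinase gene of forebrain synapses, at 0.36 (standard error 0.27). Without control replicate 1 these were 0.23 and 0.07, and without control replicate 2 they were 0.67 and 0.67. A second probe of *Camk2a* was at 0.49 (unadjusted p = 0.0276), with overlapping groups.

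Of 14 tested genes of p75 signaling, 7 lay above 0 (median 0.04). *Cdc42*, which encodes a small GTPase that shapes actin, read 1344, 1325 and 1269 in the controls and 1124, 1197 and 963 with OPP. All OPP brains were below all controls (log2 difference -0.27, standard error 0.11, unadjusted p = 0.0380, adjusted p = 0.985 from limma), and it was the gene of this list that passed unadjusted. Of the 6 fits without 1 brain it passed in that without OPP replicate 2 (-0.33), and without OPP replicate 3 it was -0.18. It also did not pass with quantile normalization (unadjusted p = 0.0646 from limma), detected-probe scaling (0.0747), no scaling (0.117), the authors' values (0.0867), normexp (0.0501) or array weights (0.0657). The kinase genes *Mapk10*, at 0.34, and *Map3k1*, at -0.29, had the largest differences of the list and did not pass. *Mapk10* was 0.09 without control replicate 2 and 0.53 without control replicate 3, where it passed unadjusted. It was above background in 2 controls and 3 OPP brains, and its reading of 243 in control replicate 2 lay under the limit of 278 on that array. *Mapk10* thus passed the filter through the OPP group, where it was higher, and neither its sign nor that unadjusted pass is support for a difference. *Map3k1* was -0.18 without control replicate 2, -0.16 without OPP replicate 2 and -0.46 without OPP replicate 1, where it passed unadjusted. Among 19 tested genes of other neurotrophic factor families, 8 lay above 0 (median -0.03) and 0 passed. *Fgf1*, which encodes an acidic fibroblast growth factor, was at -0.34 and *Nrg3*, which encodes a neuregulin, at 0.28. *Fgf1* was -0.15, -0.69 and -0.19 without control replicates 1, 2 and 3. *Nrg3* was 0.18 without control replicate 1, 0.45 without control replicate 3 and 0.87 on the authors' background-subtracted values. Without control replicate 2 *Fgf1* passed unadjusted, as did *Nrg3* without control replicate 3. *Nrg3* was near the background limit, above it in 1 control and in 3 OPP brains. It passed the filter through the OPP group, where it was higher, so neither its sign nor that pass is support for a difference.

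Of 18 tested genes of granins and dense-core vesicle cargo, the compartment from which BDNF and VGF peptides are released, 13 lay above 0 (median 0.09). *Ptprn*, which encodes the vesicle membrane protein IA-2, read 388, 456 and 419 in the controls and 563, 457 and 587 with OPP. Control replicate 2 and OPP replicate 2 were nearly equal, and the other OPP brains were clearly above. Its log2 difference was 0.34 (standard error 0.12, unadjusted p = 0.0220, adjusted p = 0.985 from limma), and it alone of the list passed unadjusted. Of the 6 fits without 1 brain it passed without control replicate 2 (0.40) or OPP replicate 2 (0.45), and the lowest value was 0.27 without OPP replicate 3. The neuropeptide gene *Cck* was at 0.31, and it was 0.11 without control replicate 1 and 0.61 without control replicate 2, where it passed unadjusted. *Scg2* and *Chgb*, granins as *Vgf* is often grouped, were at -0.17 and 0.14.

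The genes that neuronal activity induces, a class to which *Bdnf* belongs, had the highest median of the 7 lists. Of 13 tested, 12 lay above 0 (median 0.38), 7 passed an unadjusted p under 0.05 upward and 1 downward, against 1.68% and 2.38% of all probes, and 0 passed when adjusted over all probes. Without control replicate 1 the median was 0.23. These genes were known from earlier results of these data and give no independent support. *Fos*, which encodes a transcription factor, read 535, 671 and 490 in the controls and 859, 959 and 971 with OPP, with no overlap (log2 difference 0.73, standard error 0.13, adjusted p = 0.685 from limma). The adjusted p of *Fos* from limma was 0.0258 with array weights and 0.0210 without control replicate 2, and 0.369 to 0.999 in the other settings. *Arc*, which encodes a protein of dendrites, read 788, 1493 and 941 in the controls and 2350, 1505 and 2466 with OPP (0.99, standard error 0.25), and OPP replicate 2 was close to control replicate 2. *Egr1* was at 0.69, *Egr4* at 0.66 (0.41 without control replicate 1) and *Dusp1* at 0.38, and *Nr4a2* and *Homer1* completed the 7. *Sgk1*, a kinase gene that glucocorticoids also induce, read 3295, 5832 and 6317 in the controls and 2760, 3095 and 3215 with OPP (log2 difference -0.71, standard error 0.22). Cortex and hippocampus markers (11 of 17 tested) averaged 10.03 to 10.41 in the controls and 10.42 to 10.61 with OPP on the log2 scale. Of the 11, 10 lay above 0, against 48.5% of all tested probes. Upward, 3 of them had an unadjusted p under 0.05 from limma, against 1.68%. Striatum markers (10 of 14 tested, all 10 above 0, median log2 difference 0.31) averaged 8.94 to 9.93 in the controls and 9.41 to 10.06 with OPP. Endothelial and mural cell markers (5 of 13 tested, 4 below 0) averaged 9.85 to 10.17 in the controls and 9.77 to 9.78 with OPP. Downward, 3 of the 5 had an unadjusted p under 0.05 from limma, against 2.38% of all tested probes. The part of these markers in the values was not tested.

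The half-site printed above in the *Bdnf* and *Fos* windows was found in 9 of the 10 activity-induced genes with a window, against 32.1% of the 4773 tested genes with a window and 19.8% of all genes with one. It was found in 9 of 14 genes of granins and dense-core vesicle cargo, 12 of 28 of Trk signaling, 7 of 14 of other factor families, 3 of 9 of cleavage, sorting and release, 3 of 13 of p75 signaling and 2 of 4 other ligands and receptors. The counts were made after the values and the matches had been seen. A gene counted if any of its windows held the half-site, so genes with more windows had more occasions for a match. The activity-induced list was drawn up from genes known to respond to neuronal activity, so its share is not independent of that choice. A part of CREB in the values was not tested. *Bdnf* itself gave no measurable level here, so that it cannot be placed among the genes that were higher.

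**Figure D4:**
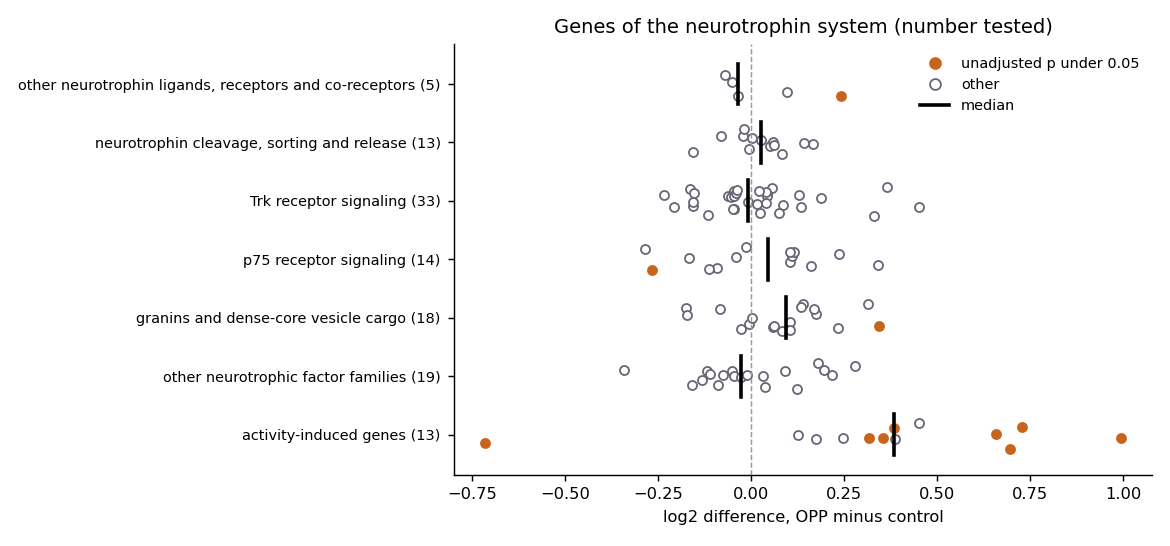
Log2 difference (OPP minus control) of each tested gene of the 7 lists (points, 1 probe per gene, orange at an unadjusted p under 0.05) with the list median (bar) and the number tested in parentheses. The median of the activity-induced genes was 0.38, and those of the other lists were between -0.04 and 0.09.

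The direction of the *Ntrk3* and *Sort1* differences was followed over 16 other ways to process the arrays or to leave out a brain. *Ntrk3* probe 1 stayed below 0 in all (-0.21 to -0.10), while *Sort1* probes 2 (0.04 to 0.17) and 3 (0.04 to 0.29), which passed the filter only through the OPP brains, lay above 0. Changes of filter or floor and the replicate block left each of these differences as it was. Where the groups do not overlap, as for *Ntrk3* probe 1, leaving out a brain cannot change the sign. The steadiness of that sign is therefore no support for a difference. *Sort1* probe 1 was above 0 in all but the fit without OPP replicate 3 (-0.04 to 0.26). *Ntrk3* probes 2, 3 and 4, which were near 0, changed sign in 3, 4 and 3 of the settings. The lowest adjusted p of any of the 7 probes in any setting was 0.574.

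**Figure D5:**
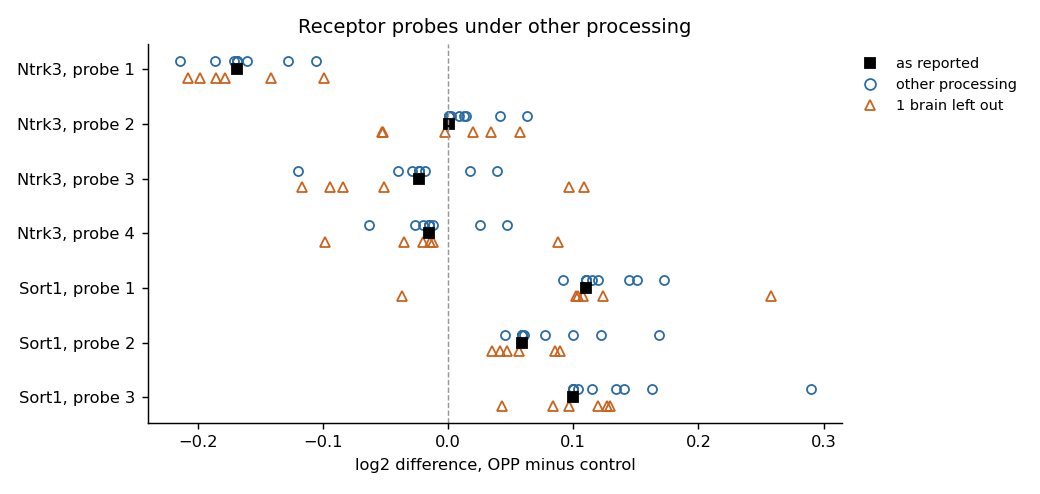
Log2 difference (OPP minus control) of the 7 tested probes as reported (black squares), under other processing (blue circles) and with 1 brain left out (orange triangles). *Ntrk3* probe 1 stays between -0.21 and -0.10, and the *Ntrk3* probes 2 to 4 lie on both sides of 0.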

How the data were processed

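RNA of 6 mouse brains (3 controls, 3 given OPP) was hybridized to 1 Illumina MouseRef-8 array each. The authors summarized the beads in BeadStudio (1.5.1.3 per the submitters' processing notes) into the deposited mean intensity of each probe, not normalized, with a detection p-value. A detection level is 1 minus that p-value. The authors' own background-subtracted intensity table of the same arrays (174 to 209 units removed per array) was an alternative. Background stays in the main intensities, so differences of dim probes are smaller on them. Genome build and probe sequences were not given in the sources used here.

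Probes were named by the platform annotation, which gave 19398 probes 1 symbol and 4650 none; all 19398 were found in RefSeq. Intensities were scaled to control replicate 1 on 2574 probes of stable rank (factors 0.847 to 1), floored at 10 and then log2-transformed. The study's methods name rank-invariant normalization without settings. The settings used here were chosen after member values under 2 scalings, and the factors under further settings, had been seen, and the other scaling is an alternative. Probes entered the fit where either group's detection level averaged over 0.99, which left 7611, and were fitted with limma (3.58.1, R 4.3.3), with Benjamini-Hochberg adjustment over all of them, in place of the Illumina Custom error model that the methods name. The fit and the scaling were tested on simulated data. Single values were compared by an exact two-sided permutation test, whose smallest p is 0.1. Array number limits the precision, and p-values measure the spread between the 3 mice of a group.

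The genes and lists were chosen with earlier results of these data known. Named were all probes of the 7 genes; in each list the genes at an unadjusted p under 0.05 (at most 6, by p) and, where fewer than 2 passed, the 2 of largest difference; and the 3 genes nearest to a member. *Furin*, *Mmp3*, *Sorl1*, *Scg2*, *Chgb*, *Nr4a2*, *Homer1* and the second *Camk2a* probe were added after their values had been seen. Alternatives changed the scaling, background, filter, floor and fit, and left out each brain in turn.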

Additional observations from a re-analysis of the deposited data

How the results depend on the processing

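With scaling on detected probes to the mean array, an alternative chosen after seeing the data, the unadjusted p was under 0.05 for 240 higher probes and 103 lower ones, against 128 and 181, so that the split between directions rests on the scaling. Without scaling they were 147 and 71, with no filter 429 and 518, and with array weights 293 and 457. At an adjusted p under 0.05, 2 were lower with the authors' values, normexp, no filter, the replicate block or array weights, and 1 was higher with array weights. Without 1 brain, 0 to 1 were higher and 1 to 6 lower at an adjusted p, and 69 (without control replicate 1) to 314 higher and 117 (without OPP replicate 3) to 512 lower (both highest without control replicate 2) unadjusted.

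*Ntrk3* probes 3 and 4 turned to 0.017 and 0.026 with the detected-probe scaling and to 0.039 and 0.047 without scaling. Without 1 brain, *Ntrk3* probe 1 was -0.21 to -0.10, probe 2 -0.053 to 0.057, probe 3 -0.12 to 0.11 and probe 4 -0.099 to 0.088, and *Sort1* probe 1 -0.037 to 0.26, probe 2 0.035 to 0.089 and probe 3 0.043 to 0.13. *Ntrk3* probe 2 was below 0 without control replicate 2 (-0.053), control replicate 3 (-0.0024) or OPP replicate 2 (-0.052), probe 3 above 0 without control replicate 1 (0.097) or OPP replicate 2 (0.11), probe 4 above 0 without OPP replicate 1 (0.088), and *Sort1* probe 1 below 0 without OPP replicate 3 (-0.037).

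The median of Trk signaling genes was 0.030 with quantile normalization, 0.032 with detected-probe scaling, 0.054 without scaling and -0.039 with detection in every array of a group. That of p75 signaling was 0.086, 0.11 and -0.00082 with detected-probe scaling, no scaling and array weights, and -0.011 to 0.086 without 1 brain. Dense-core vesicle genes had 0.16 with the authors' values and 0.0079 with array weights, the other receptors 0.083 with array weights and -0.093 to 0.066 without 1 brain, and the activity-induced genes 0.20 with no filter. The causes were not tested.

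Same-numbered brains correlated at -0.27, 0.05 and 0.17 in their deviations. So few values show no steady likeness by replicate number but cannot exclude a pairing or a shared batch. With the replicate block 97 probes were higher and 146 lower unadjusted, and 0 and 2 adjusted. A chip block was not run, since the files name no chip. *Bdnf*, *Ngfr* and, outside 1 brain, *Ntrk2* were too dim to measure.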
